A study of Mus musculus with 6 samples.

Results

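The genes described here carry the interleukin-2 (IL-2) signal of regulatory T cells (Treg): the receptor chains Il2ra, Il2rb and Il2rg, the kinases Jak1 and Jak3, the transcription factors Stat5a and Stat5b, and the inhibitors Socs1, Socs3 and Cish. They were chosen as a named list of 10 genes, and every probe set that the platform annotation gives to a single one of them was taken. This gave 17 of the 22626 probe sets tested, for 9 of the 10 genes, out of 12393 genes with a probe set of their own. Il2rg had 0 probe sets named in the annotation used here and was not analysed. The samples were CD4+CD25+ Treg from HDAC6 knock out mice (3 arrays) and from wild type C57BL6 mice (3 arrays). They were separated magnetically and hybridised to 1-colour short-oligonucleotide arrays. No treatment, time or age was labelled in either group. The strain of the knockout mice, the allele, the cells in which it was deleted, and whether a sample came from 1 animal or a pool were not given in the labels. P-values therefore measure the spread between these samples. HDAC6 is a mostly cytoplasmic deacetylase, known for acting on tubulin and on the chaperone HSP90.

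IL-2 binds a receptor of 3 chains, in which Il2ra (CD25) raises the affinity while Il2rb and Il2rg carry the signal into the cell. The receptor-bound kinases JAK1 and JAK3 then phosphorylate STAT5A and STAT5B, which move to the nucleus and bind DNA. STAT5 switches on its own brakes, among them Cish and the suppressors of cytokine signalling (SOCS). Treg make little IL-2 of their own and depend on this pathway for the expression of Foxp3, for survival and for suppressive function.

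The labelled cell type was checked against its defining transcripts. On the log2 scale of the deposited RMA values, Foxp3 read 10.18 to 10.40 in knockout arrays and 10.21 to 10.33 in wild-type arrays, and Cd3e read 11.81 to 11.98 in knockout arrays and 11.95 to 12.04 in wild-type arrays. Of the 8 probe sets of the Treg list, 7 were higher in the knockout, where the share over all probe sets was 49.6%. Of the 8, 0 passed the test used below, with none at an unadjusted p under 0.05. The list includes both Il2ra probe sets, which are also members, so it is not separate from the genes described here. Array medians lay between 6.22 and 6.27 and lower quartiles between 4.14 and 4.25. Hdac6 itself read 7.54 to 7.86 in the knockout and 8.23 to 8.54 in wild type, a log2 difference of -0.71 with limma's adjusted p at 0.0875. Its genotypes did not overlap, but the labels do not say where the probe set lies relative to the deletion. Plasma cell transcripts moved with genotype: 18 of 19 probe sets of that marker list were higher in the knockout. Summed on a linear scale they gave 80669 to 92287 units in knockout arrays and 22999 to 31409 in wild-type arrays, led by Igha, the constant region of IgA, with a difference of 2.79 (adjusted p = 0.00474). Of 8 B cell probe sets 4 were higher and 4 lower, with summed levels of 1175 to 1686 in the knockout and 1549 to 2139 in wild type and with Ms4a1 (CD20) at -1.13 and -1.18. Markers of activated conventional CD4 T cells (1 of 6 probe sets higher) gave 787 to 983 in the knockout and 887 to 1311 in wild type. NK and innate lymphoid markers (1 of 6 higher) gave 1443 to 1777 in the knockout and 1404 to 2070 in wild type. CD8 T cell markers (1 of 3 higher) gave 165 to 176 in the knockout and 185 to 212 in wild type. Myeloid markers (3 of 9 higher) gave 953 to 1263 in the knockout and 1124 to 1473 in wild type. A probe set of Cd8a and that of Itgam lay below the lower quartile of each array. The part that other cells have in the values below was not tested. In such bulk samples, fewer cells of a type and less RNA per cell cannot be told apart.

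Socs3, an inhibitor of JAK signalling, was the member with the largest difference between genotypes: the lowest knockout array stood above the highest wild-type array in each of its 3 probe sets, with mean differences of 0.59 to 0.71 on the log2 scale. Jak3 was higher by 0.34 without overlap, and the other members differed by at most 0.14 in either direction. None of the 17 member probe sets passed the threshold of 0.05 on limma's adjusted p. Of all 22626 probe sets 44 passed (0.194%), with 0.0796% higher and 0.115% lower in the knockout. At an unadjusted limma p under 0.05 there were 4 member probe sets of 17, all higher in the knockout, beside 10.6% of all probe sets (5.26% higher and 5.36% lower). They were 3 of Socs3 and 1 of Jak3, so 2 of the 9 measured genes. An unmoderated test called 0 members, with 3 at an unadjusted p under 0.05, and limma with trend and robust settings called 1, a Socs3 probe set. Over all members 13 probe sets were higher and 4 lower, with a median difference of 0.09. Of all probe sets 49.6% were higher, with a median of -0.0012. Without Socs3 the members' median was 0.07.

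**Figure D1:**
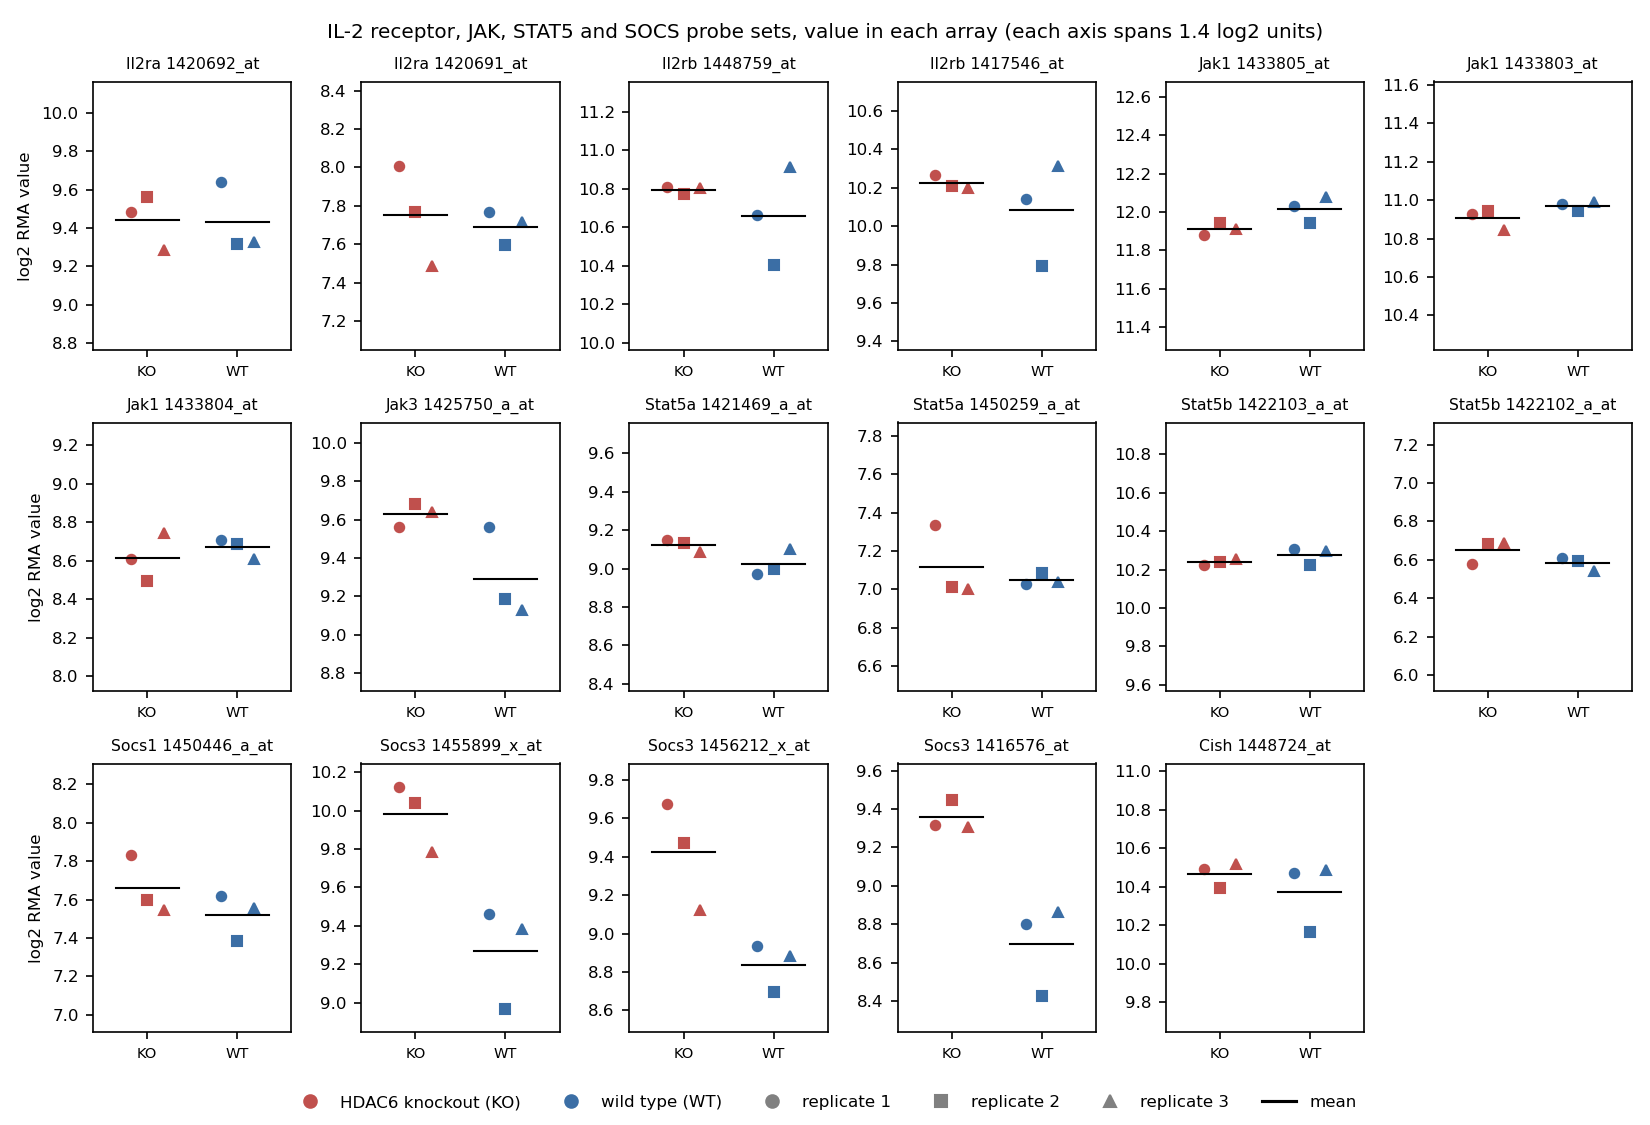
Log2 RMA value of each of the 17 member probe sets in each array, with HDAC6 knockout (KO) left and wild type (WT) right, marker shape giving the replicate number and a black bar the mean. Each vertical axis spans 1.4 log2 units. The Socs3 panels are those where the groups stand clearly apart, and wild type replicate 2 (square) is the lowest array in 8 panels.

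For the receptor chains measured, no difference beyond the spread between arrays was detected. Il2ra encodes CD25, the surface protein by which the cells were separated. Whether that separation bears on its transcript level was not tested. Its brighter probe set, 1420692_at, read 9.48, 9.56 and 9.28 in the knockout, against 9.64, 9.32 and 9.33 in wild type. The highest and the lowest of these values belonged to wild type replicate 1 and knockout replicate 3, and the groups overlapped throughout. The difference was 0.01 (SE 0.12), and its 95% interval of -0.26 to 0.29 covers a change between 0.83- and 1.22-fold. The dimmer probe set, 1420691_at, read 8.01, 7.77 and 7.49 in the knockout, against 7.77, 7.59 and 7.72 in wild type. Its knockout values spread more widely (SD 0.26, n = 3) than its wild-type values (SD 0.09, n = 3), and the difference was 0.06 (SE 0.13, limma adjusted p = 0.909).

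Il2rb encodes the signalling chain that IL-2 shares with interleukin-15. Its probe set 1448759_at read 10.81, 10.77 and 10.81 in the knockout, against 10.66, 10.41 and 10.91 in wild type. Probe set 1417546_at read 10.27, 10.21 and 10.20 in the knockout, against 10.14, 9.79 and 10.31 in wild type. The knockout arrays sat close together in both, inside a wild-type range set by replicate 2 at the bottom and replicate 3 at the top. The differences were both 0.14 (SE 0.13 each, limma adjusted p = 0.755 and 0.756). They moved with the wild-type arrays. Without wild type replicate 2 they were 0.01 and -0.0035, and without wild type replicate 3 they were 0.26 and 0.26 (adjusted p = 0.421 and 0.496). Across the 6 arrays these probe sets gave a Pearson r of 0.98, given as a description since they measure 1 gene in the same libraries.

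Jak3 and Jak1 are the kinases bound to the shared γ chain and to Il2rb. Jak3 probe set 1425750_a_at read 9.56, 9.68 and 9.64 in the knockout, against 9.56, 9.19 and 9.13 in wild type. All knockout arrays were higher, but knockout replicate 1 (9.5618) and wild type replicate 1 (9.5596) nearly touched. The difference was 0.34 (SE 0.12, 95% interval 0.05 to 0.62), with limma's adjusted p at 0.387. Leaving out 1 array gave 0.25 (without wild type replicate 3) to 0.47 (without wild type replicate 1), with adjusted p from 0.168 to 0.656. A further probe set, 1423021_s_at, is annotated to Jak3 and to Insl3 together and so is no member. It read 10.28, 10.39 and 10.39 in the knockout, against 10.19, 9.86 and 9.78 in wild type, with the same array order in wild type. The knockout exceeded wild type there by 0.41 (SE 0.12, limma adjusted p = 0.276). Another shared by these genes, 1427092_at, lay below the lower quartile of each array, at 3.40 to 3.78 in the knockout and 3.36 to 3.52 in wild type.

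Jak1 was measured by 3 probe sets, all lower on average in the knockout. The brightest, 1433805_at, read 11.88, 11.94 and 11.91 in the knockout, against 12.03, 11.94 and 12.08 in wild type, and its genotypes were separated only by the third decimal of both replicate 2 arrays. Its difference was -0.11 (SE 0.07, 95% interval -0.27 to 0.05, limma adjusted p = 0.640). Probe set 1433803_at differed by -0.07 and 1433804_at by -0.05, both with overlap and with adjusted p of 0.776 and 0.867. Of the member probe sets, 4 had all knockout arrays above wild type and 1 all below. The shares over all probe sets were 7.68% and 9.48%, or 17.2% together.

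**Figure D2:**
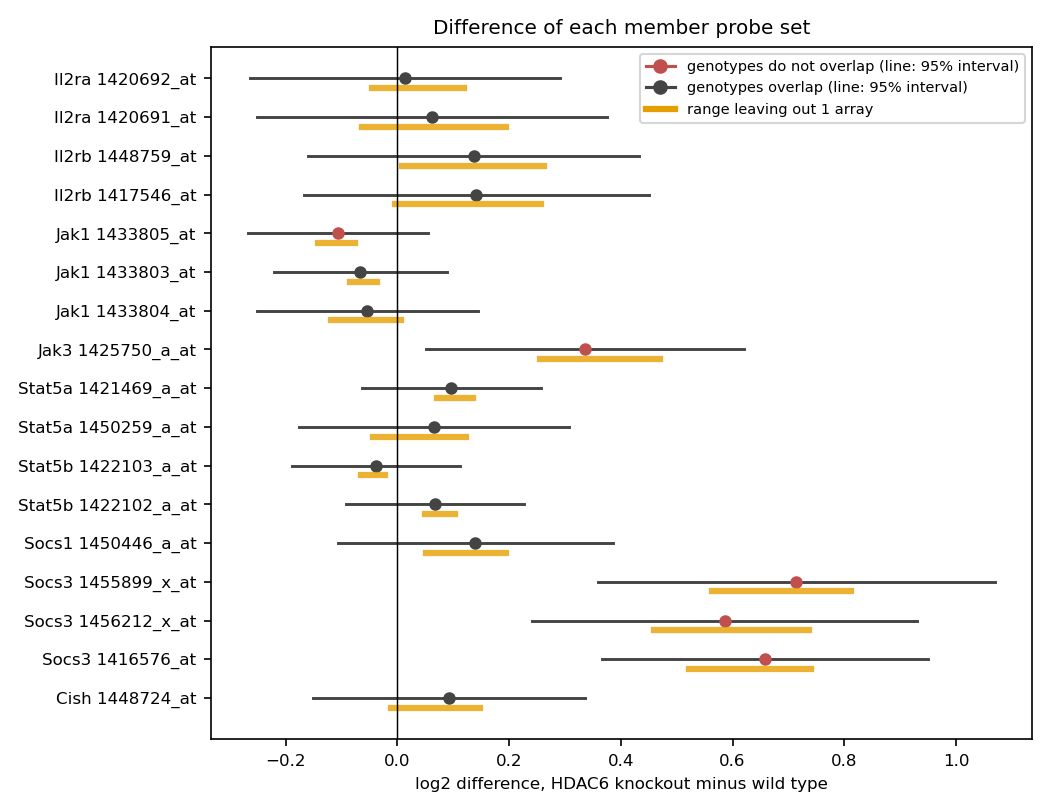
Log2 difference, HDAC6 knockout minus wild type, of each member probe set with its 95% interval from limma (line), and beneath it the range of the difference when 1 array at a time is left out (orange). Red points mark probe sets whose genotypes did not overlap. The intervals of Socs3 and Jak3 lie above 0, those of the other members span it.

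Stat5a and Stat5b, the transcription factors that act below the receptor, overlapped between genotypes in all 4 probe sets. Stat5a probe set 1421469_a_at read 9.15, 9.13 and 9.08 in the knockout, and lay between 8.97 and 9.10 in wild type. It differed by 0.10 (SE 0.07, limma adjusted p = 0.668). Stat5b probe set 1422103_a_at read 10.22, 10.24 and 10.25 in the knockout, against 10.31, 10.22 and 10.30 in wild type. Its difference was -0.04 (SE 0.06), and the 95% interval of -0.19 to 0.11 covers 0.88- to 1.08-fold. The dimmer probe sets, 1450259_a_at of Stat5a and 1422102_a_at of Stat5b, each differed by 0.07 (SE 0.10 and 0.07, adjusted p = 0.867 and 0.777). In Stat5a the dimmer value rested on knockout replicate 1, which read 7.33 where each of the other 5 arrays read 7.08 or less, and without it the difference was -0.0435.

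Socs3 encodes a protein that binds JAKs and gp130-type receptors and limits signalling by interleukin-6 and related cytokines, and STAT3 and STAT5 are known inducers of its transcription. Its brightest probe set, 1455899_x_at, read 10.12, 10.04 and 9.79 in the knockout, against 9.46, 8.97 and 9.38 in wild type. Probe set 1456212_x_at read 9.67, 9.47 and 9.12 in the knockout, against 8.94, 8.70 and 8.88 in wild type. Probe set 1416576_at read 9.32, 9.45 and 9.30 in the knockout, against 8.80, 8.43 and 8.86 in wild type. In all 3 the lowest array was wild type replicate 2 and the groups were apart. The gap between the lowest knockout and the highest wild-type array was widest for 1416576_at. An ending in x marks probe sets some of whose probes may bind other transcripts, so 1416576_at is the more specific of the 3.

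The differences were 0.71 for 1455899_x_at (SE 0.15, 95% interval 0.36 to 1.07), 0.59 for 1456212_x_at (SE 0.15, 95% interval 0.24 to 0.93) and 0.66 for 1416576_at (SE 0.12, 95% interval 0.37 to 0.95). Limma's adjusted p was 0.157, 0.223 and 0.120, so none passed. By unadjusted p they ranked 292, 508 and 198 among the 22626 probe sets. Leaving out wild type replicate 2 lowered them to 0.56, 0.51 and 0.52. The lowest value over all left-out arrays was 0.46, for 1456212_x_at without knockout replicate 1. With trend and robust settings 1416576_at passed at an adjusted p of 0.0417, while its adjusted p under the other alternatives reached up to 0.370. The 3 probe sets correlated across arrays with Pearson r between 0.87 and 0.97, which describes 1 gene in the same 6 libraries. Plasma cell transcripts were higher in the same knockout arrays. Their summed level was highest in knockout replicate 3, where all 3 Socs3 probe sets had their lowest knockout value. For 1416576_at that was by little (9.30, against 9.32 in knockout replicate 1). The part of plasma cells in the Socs3 values was not tested, and the order of 3 arrays cannot decide it.

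The start region of Socs3 is shown because it holds a match to the motif that STAT proteins are known to bind, searched as TTCNNNGAA, which reads the same on both strands. In the RefSeq promoter table (GRCm38.p6), the 250 bases before the annotated start of Socs3 lie on the minus strand at chr11:117969367-117969616, and the match, in capitals, begins 154 bases before the start at chr11:117969512-117969520. For Cish, 30 bases around the start are shown, on the plus strand at chr9:107296654-107296683. They hold 2 matches, the first beginning at the annotated start and the second 11 bases after it.
Socs3: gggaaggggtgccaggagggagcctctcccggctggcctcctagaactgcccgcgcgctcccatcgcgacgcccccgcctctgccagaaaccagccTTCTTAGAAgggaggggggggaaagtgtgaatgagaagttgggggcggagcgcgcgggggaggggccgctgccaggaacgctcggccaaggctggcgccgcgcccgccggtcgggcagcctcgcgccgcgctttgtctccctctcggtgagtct
Cish: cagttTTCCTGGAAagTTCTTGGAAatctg
The window searched for each gene ran from 250 bases before the start to 50 after it. Il2rb was not searched. Of the 9 members with such a window, these 2 held the motif and 7 did not. It occurred in 8.3% of the 32851 windows of the table, and 2 or more copies in 0.457%. A match is a description of the sequence and not evidence of binding. Neither Socs3 nor Cish passed the test between genotypes. Windows of some genes outside the members were searched as well. That of Il7r, described below, held 1 match, beginning 142 bases before its start, and those of Nfil3 and Hdac6 held 0.

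Cish, a SOCS family member that STAT5 induces and that is often read as a measure of IL-2 receptor activity, read 10.49, 10.39 and 10.52 in the knockout, against 10.47, 10.17 and 10.49 in wild type. Except for wild type replicate 2, the arrays lay within a narrow band. The difference was 0.09 (SE 0.10, 95% interval -0.15 to 0.34), with limma's adjusted p at 0.803, and it was -0.01 without wild type replicate 2. The interval covers 0.90- to 1.26-fold. Socs1, which blocks JAK kinase activity in interferon and IL-2 signalling, read 7.83, 7.60 and 7.55 in the knockout, against 7.62, 7.38 and 7.56 in wild type. Its difference was 0.14 (SE 0.10, 95% interval -0.11 to 0.39, adjusted p = 0.691), with knockout replicate 1 the highest and wild type replicate 2 the lowest array. A test of Socs3 against Socs1 or Cish was not run, so no difference between them is claimed.

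Wild type replicate 2 stood out among the members. It was the lowest of the 6 arrays in 8 of 17 member probe sets (47.1%) and the highest in 0. The 8 belonged to 5 genes, Il2rb, Stat5b, Socs1, Socs3 and Cish. The probe sets of Socs3 correlated with each other across arrays, as did those of Il2rb, so the share counts these genes repeatedly. Over all probe sets wild type replicate 2 was the lowest in 15.4% and the highest in 15.1%, so that it was not low in general. The other arrays were lowest in 1 to 4 member probe sets each.

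The genes with the array pattern most like Socs3 were found by Pearson's r with its brightest probe set over the 6 arrays. They were Arf4 (0.9939, on a probe set below the lower quartile of each array), Fam207a (0.9936) and Src (0.9922), a tyrosine kinase whose probe set lay between 5.73 and 6.04 in the knockout and between 5.09 and 5.53 in wild type. With 6 arrays such values are common, since 265 probe sets of other genes exceeded 0.9. For Cish they were Ptms (0.9852), Notch3 (0.9836) and Clcc1 (0.9807), which were likewise low in wild type replicate 2, and 134 exceeded 0.9. The probe sets of Notch3 and Clcc1 lay below the lower quartile of each array. These likenesses are descriptions of shared libraries.

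Around the members, 7 lists of pathway genes were read from the same fit. They held 149 probe sets of 77 of the 88 listed genes. A probe set of Il7r passed the threshold, the only one to do so, and 24 of the 149 had an unadjusted limma p under 0.05, where the share over all 22626 probe sets was 10.6%. The medians of the 7 lists lay between -0.03 and 0.04.

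Il7r, the receptor chain for the survival cytokine interleukin-7 that pairs with the same γ chain as Il2rb, fell in the knockout. Its probe set 1448576_at read 9.32, 8.96 and 8.83 in the knockout, against 10.41, 10.30 and 10.17 in wild type. The groups were clearly apart. The difference was -1.26 (SE 0.14, 95% interval -1.58 to -0.94, limma adjusted p = 0.0231). Its other probe set, 1448575_at, read 11.40, 11.14 and 11.27 in the knockout, against 11.88, 11.69 and 11.93 in wild type, and its difference of -0.57 did not pass (adjusted p = 0.107). Treg are known to carry less of this receptor than conventional CD4 T cells. The call of 1448576_at was lost when knockout replicate 2 (adjusted p = 0.139) or 3 (0.0749) was left out, or when replicate 1 (0.0883) or 2 (0.121) of wild type was, and under the unmoderated test (0.253), with the difference between -1.15 and -1.40 over all left-out arrays.

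The other ligands and receptors of the γ chain family showed no call. The list of 16 probe sets had 8 higher and 8 lower. Il4, the type 2 cytokine, read 6.19, 6.22 and 6.73 in the knockout, against 7.01, 7.87 and 7.71 in wild type (difference -1.15, SE 0.25, adjusted p = 0.158). It is 1 of the 6 markers of activated conventional CD4 T cells whose sums are given above. Il21, the cytokine of follicular helper T cells, read 7.39, 6.72 and 5.87 in the knockout, against 5.39, 5.54 and 5.15 in wild type (difference 1.30, SE 0.35, adjusted p = 0.247). The knockout values of Il21 spread widely, and the lowest lay close to the highest wild-type value. Il2 itself, named here after its values were seen, read 6.11 to 6.22 in the knockout and 5.78 to 6.09 in wild type, with an adjusted p of 0.556. It is another of those 6 markers, and the only 1 of them higher in the knockout.

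**Figure D3:**
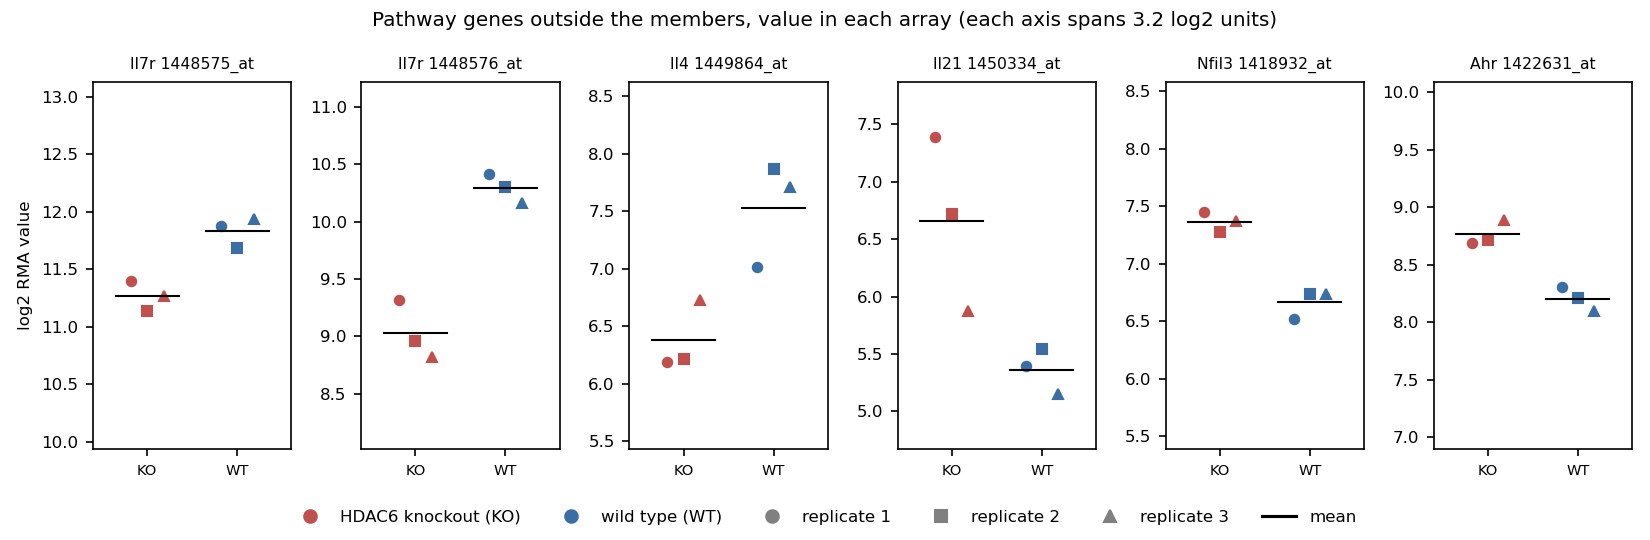
Log2 RMA value in each array for 6 probe sets of pathway genes outside the members, with HDAC6 knockout (KO) left and wild type (WT) right, marker shape giving the replicate and a black bar the mean. Each vertical axis spans 3.2 log2 units. In all 6 the groups do not overlap, and Il7r 1448576_at alone passed the threshold. The 6 were chosen from the smallest p-values of their lists, so their lack of overlap follows from that choice. Of the 149 list probe sets, 16 had all knockout arrays above wild type and 14 all below. Over all probe sets, 17.2% did not overlap.

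Genes known to be raised by IL-2 and STAT5 were divided, with 20 of 37 probe sets higher and 17 lower, a median of 0.04, and 0 past the threshold in either direction. At an unadjusted p under 0.05, 5 were higher and 1 lower, 2 of the 5 being probe sets of Ahr. The shares over all probe sets were 5.26% higher and 5.36% lower. Nfil3, a transcription factor of lymphocyte differentiation, read 7.45, 7.27 and 7.37 in the knockout, against 6.52, 6.74 and 6.74 in wild type. Its difference of 0.70 (SE 0.09) missed the threshold at a limma adjusted p of 0.0515. It passed under 5 alternatives, with adjusted p of 0.0191 to 0.0467, and its adjusted p reached 0.249 under the others. Ahr, a ligand-activated transcription factor, read 8.69, 8.72 and 8.89 in the knockout, against 8.31, 8.21 and 8.10 in wild type (difference 0.56, SE 0.09, adjusted p = 0.0849). Its dimmer probe set 1450695_at differed by 0.20 (adjusted p = 0.465). Tnfrsf4 (OX40), a costimulatory receptor, differed by 0.27 and the cell cycle gene Ccnd3 by 0.26, with adjusted p of 0.357 and 0.428. The genes named so far from this list were all higher. Among those lower, named here after their values were seen, Myc differed by -0.31 with overlap (limma adjusted p = 0.509). Bcl2l1 differed by -0.18 in 1420888_at without overlap (adjusted p = 0.457), and by -0.06 to -0.09 in its other probe sets, with overlap. Among genes known to be lowered by IL-2, 3 of 7 probe sets were higher and 4 lower, and 1 passed, the Il7r probe set above. Il6st, the gp130 chain to which SOCS3 binds, differed by 0.27 in its brightest probe set, 1452843_at (SE 0.09, adjusted p = 0.345), and by 0.15 and -0.0119 in its other probe sets, both with overlap. The transcriptional repressor Bcl6 differed by 0.08 in its brighter probe set, 1421818_at, and by -0.07 in 1450381_a_at (adjusted p = 0.841 and 0.767), so its probe sets did not share a direction.

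Of the other JAKs and STATs, 5 of 11 probe sets were higher and 6 lower, and 0 passed. An unadjusted limma p under 0.05 was found for 2 of the 11, beside 10.6% of all probe sets. Stat3 probe set 1460700_at read 10.37, 10.32 and 10.22 in the knockout, against 10.02, 10.01 and 10.12 in wild type. It differed by 0.25 (SE 0.07, adjusted p = 0.293). Its probe set 1426587_a_at differed by 0.13 and its dim probe set 1424272_at by -0.07, both with overlap. Stat4, which acts below interleukin-12, differed by 0.28 (SE 0.08, adjusted p = 0.289), and Stat6, which acts below interleukin-4, by -0.08 in 1421708_a_at and -0.03 in 1426353_at (adjusted p = 0.733 and 0.908).

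Of the other SOCS genes and negative regulators, 13 of 32 probe sets were higher and 19 lower, and 0 passed. An unadjusted limma p under 0.05 was found for 5 of the 32, beside 10.6% of all probe sets. Ptpn11, the phosphatase SHP2, read 9.67, 9.49 and 9.57 in the knockout, against 9.26, 9.24 and 9.21 in wild type (difference 0.34, SE 0.07, adjusted p = 0.157). Those values are of probe set 1451225_at. Of its dimmer probe sets, 1427699_a_at differed by -0.07 with overlap and 1421196_at by 0.19 without (adjusted p = 0.878 and 0.414). Ptpn2, a phosphatase that removes phosphate from JAK1, JAK3 and STATs, differed by -0.24 in 1438562_a_at and by -0.18 in 1417140_a_at (adjusted p = 0.367 and 0.458). Its dimmer probe sets, 1425197_at and 1425198_at, differed by 0.04 and -0.0157 with overlap.

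The branches of the IL-2 receptor through PI3K and MAPK gave 15 of 31 probe sets higher and 16 lower, for 14 of 23 listed genes. None passed, and 3 had an unadjusted limma p under 0.05, beside 10.6% of all probe sets. Pik3r1, the regulatory subunit of PI3K, differed by -0.25 in 1425514_at (adjusted p = 0.348) and by -0.10 and -0.09 in its other probe sets. The adaptor Gab2 differed by -0.23 (adjusted p = 0.403). The exchange factor Sos1 differed by -0.14 in its brightest probe set, 1421884_at, by 0.28 in the dim 1421885_at and by 0.0038 in 1421886_at, all with overlap (adjusted p = 0.588, 0.451 and 0.993). The catalytic subunit Pik3cd differed by -0.04 in its brightest probe set, 1453281_at, by -0.18 in 1422992_s_at and by 0.03 in 1422991_at, with adjusted p of 0.475 or more. Receptors and STATs that SOCS1 or SOCS3 restrain gave 11 of 25 higher and 14 lower, and 0 passed. Of the 25, 3 had an unadjusted limma p under 0.05, again beside 10.6% of all probe sets. Ifngr2, a chain of the interferon-γ receptor, differed by -0.19 in 1423558_at and by -0.13 in the brighter 1423557_at (adjusted p = 0.344 and 0.763), and Irf1, a target of that receptor, by 0.17 (adjusted p = 0.513).

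**Figure D4:**
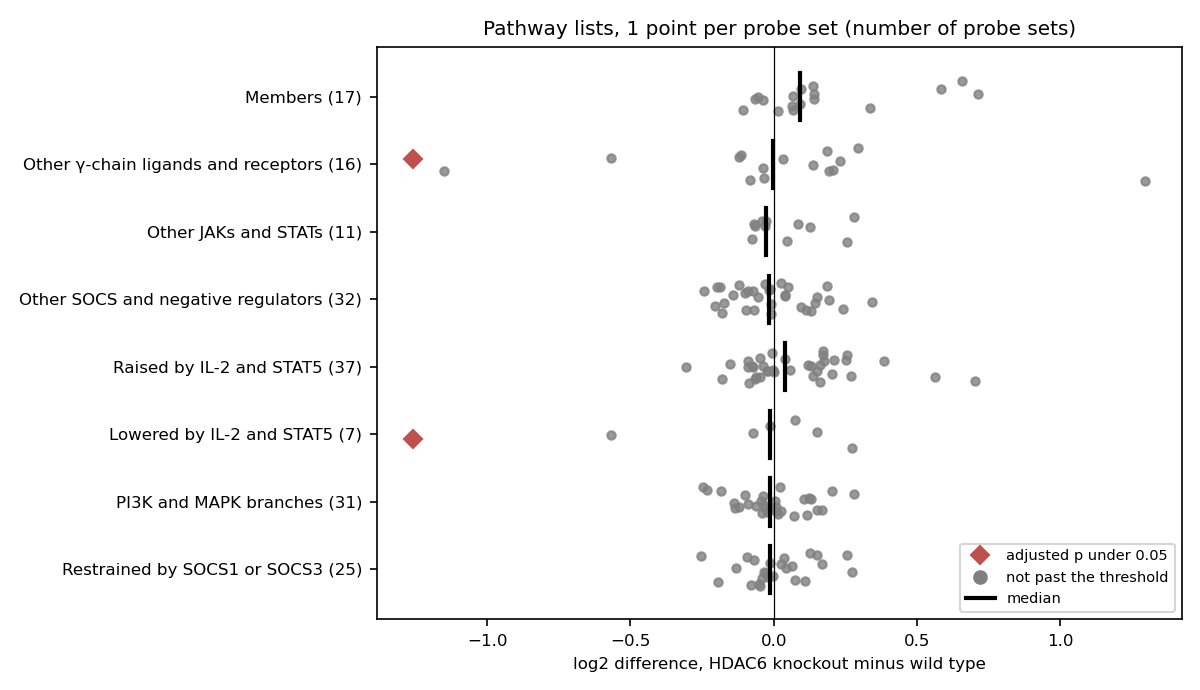
Log2 difference, HDAC6 knockout minus wild type, of each probe set of the members and of 7 lists of pathway genes, with the number of probe sets in brackets, a black bar at the median and a diamond where limma's adjusted p was under 0.05. Most points lie near 0, and the diamond is the same Il7r probe set in 2 lists.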

How the data were processed

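The authors deposited 1 table of log2 values for 22690 probe sets on 6 arrays. Per the submitters' processing notes it was made with RMA, with no version given. RMA as a method corrects background, quantile-normalizes and summarises the probes of each set. The log2 scale was inferred from the values (2.09 to 14.5). RMA compresses differences of dim and near-saturated probe sets. No label or header names a genome build for the probes.

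The 64 control probe sets were left out. Names came from the platform annotation: 20380 tested probe sets carried 1 symbol, 691 several and 1555 none. Knockout and wild type were compared over all 22626 probe sets with limma 3.58.1 in R 4.3.3 (genotype as the only term, two-sided, Benjamini-Hochberg adjustment over all probe sets). Differences are knockout minus wild type. The number of arrays limits the precision, with a median SE of 0.0953. The fit was tested on simulated data, where recovery was required only for changes larger than any member difference. The members and the lists were chosen with earlier results of these data known, and the counts over lists are descriptions. Named genes were all members, Hdac6, the genes of the 4 smallest p-values of each pathway list, and the 3 genes most like Socs3 and Cish. Of the marker lists only some genes were named, and each list was given by its count of higher probe sets. Figures were drawn with matplotlib 3.10.9. The alternatives were a replicate block, renewed quantile normalization, median centring, trend and robust settings, array weights, an unmoderated test, filters on dim probe sets, 1 probe set a gene, a threshold of 0.1 and leaving out each array.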

Additional observations from a re-analysis of the deposited data

How the results depend on the processing

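With 3 arrays a genotype, the 95% intervals of the members other than Socs3 and Jak3 spanned 0. Over 14 alternatives to 17 member probe sets, 228 of 238 values kept the direction and the side of the threshold, 9 changed sign and 1 passed. Since no member had passed before, keeping the side of the threshold meant staying uncalled. The replicate block, trend and robust settings, filters on dim probe sets and unmoderated test leave each difference unchanged, and with it the sign. The count is therefore no measure of robustness. The sign changes came from leaving out 1 array, which gave ranges of -0.0454 to 0.12 for Il2ra 1420692_at, -0.063 to 0.20 for Il2ra 1420691_at, -0.0035 to 0.26 for Il2rb 1417546_at, -0.12 to 0.0064 for Jak1 1433804_at, -0.0435 to 0.12 for Stat5a 1450259_a_at and -0.0118 to 0.15 for Cish. Among markers, Ncr1 ranged from -0.44 to 0.0680. The cause was not tested. With trend and robust settings Socs3 1416576_at passed, at the same difference of 0.66, so 1 member passed in place of 0. Under the same settings 147 probe sets passed in place of 44. There were 86 with array weights, 121 at a threshold of 0.1, 20 of genes at 1 probe set a gene, 0 with the unmoderated test (0 members, 3 at an unadjusted p under 0.05), and 5 to 51 leaving out 1 array. Of the pathway lists, 1 probe set passed. There were 2 with quantile normalization, array weights or either filter on dim probe sets, 4 with trend and robust settings, 0 with the unmoderated test, and 0 to 1 leaving out 1 array. With the replicate number as a block (replicate block), 27 of all probe sets passed, 0 of the members and 1 of the lists. The numbers share only a label: deviations of same-numbered arrays correlated at 0.22, -0.09 and 0.10.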
